A study of Mus musculus with 3 samples.

Results

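The 10 genes followed here belong to Notch signalling and were measured across the cell classes of the aged mouse hippocampus. They were listed by name and are the ligands Dll1, Dll4, Jag1 and Jag2, the receptors Notch1, Notch2, Notch3 and Notch4, and the target genes Hes1 and Hey1. These 10 genes are among 31053 gene rows of the count tables, and all 10 passed the filter on low counts that left 14401 genes for testing. The cells came from untreated wild-type C57BL/6 mice aged 2 years. RNA of single cells was counted in 3 libraries, called replicates 1, 2 and 3 of this single group, so the comparisons below are between cell classes of the same libraries and not between treatments or ages. The title of replicate 3 gives 25 months. The series names 6 hippocampi, but which of them gave which library is not stated. Cells were freed with papain at about 20 units per ml, and myelin was removed with beads.

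Notch signalling passes between cells that touch. A Delta-like (Dll) or Jagged (Jag) ligand on 1 cell pulls on a Notch receptor of its neighbour, the receptor is cut by the protease Adam10 and then by the gamma-secretase complex, and the freed intracellular part joins the DNA-binding protein Rbpj in the nucleus. There it turns on genes of the Hes and Hey families, which encode repressors of transcription. In blood vessels the pathway is known for setting arterial identity in endothelial cells and for maintaining the mural cells around them, and in brain tissue for keeping progenitor and glial states. Inherited changes of NOTCH3 in humans cause CADASIL, a disease of the small arteries of the brain.

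Promoter windows of 250 bases before to 50 bases after the start of transcription were searched for TGGGAA, the core of the Rbpj site, on both strands. Sequences are those of RefSeq on GRCm38.p6. The table of promoters held 8 of the 10 genes with 9 windows, and the targets Hes1 and Hey1 were not in it. None of the 9 windows, all of ligands and receptors, contained the letters TGGGAA. Over all 32851 windows of this length, 25.6% contained them, and 6.38% contained the longer form GTGGGAA, which overlaps the shorter one by construction. Of the windows of the other pathway genes, 15 of 53 contained TGGGAA. Among the other target genes of the pathway, Hes5 and Hey2 each held 2 matches, the Nrarp window held none, and Heyl had no window. A window of Lfng and a window of Rbpj, which are not listed as targets, also held 2 matches each. The matches were therefore not particular to the genes listed here as targets. Whether other genes of the list are also targets was not tested. The Hes5 and Hey2 windows are shown because these genes followed 2 different class patterns described below. Capitals mark the matches, which read TTCCCA where the site lies on the other strand.
Hes5 (chr4:154960673-154960972, plus strand): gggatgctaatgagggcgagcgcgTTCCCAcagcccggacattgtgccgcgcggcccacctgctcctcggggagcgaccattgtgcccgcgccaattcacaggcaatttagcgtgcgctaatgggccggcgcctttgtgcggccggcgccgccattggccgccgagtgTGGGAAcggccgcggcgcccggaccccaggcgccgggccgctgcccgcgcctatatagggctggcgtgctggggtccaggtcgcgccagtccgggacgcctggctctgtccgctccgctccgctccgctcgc
Hey2 (chr10:30842734-30843033, minus strand): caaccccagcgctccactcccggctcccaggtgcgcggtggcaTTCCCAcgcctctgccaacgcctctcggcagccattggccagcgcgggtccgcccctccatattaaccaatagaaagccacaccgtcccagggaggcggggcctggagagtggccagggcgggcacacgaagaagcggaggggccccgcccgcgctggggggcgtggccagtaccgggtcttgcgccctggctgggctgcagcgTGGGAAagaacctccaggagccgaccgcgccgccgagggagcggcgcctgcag
The Hes5 matches began 226 bases (minus strand) and 82 bases (plus strand) before the start, and the Hey2 matches 207 bases (minus) and 3 bases (plus) before it. A match of letters is a description of the window and not a site that was measured here.

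Cells were put into 8 classes by the detection of marker genes in each library. Arterial endothelial cells, which line arteries, needed at least 2 of the markers Gkn3, Sema3g and Bmx besides 2 of Cldn5, Flt1 and Pecam1, and the remaining endothelial cells formed the class of other endothelial cells. After filtering, 12100 cells were kept and 9675 of them fell into the 8 classes. There were 951 arterial and 3777 other endothelial cells, 33 smooth muscle cells, 145 pericytes, 2173 astrocytes, 631 ependymal cells, 257 oligodendrocyte precursor cells (OPC) and 1708 microglia. Smooth muscle was scarce, with 26, 0 and 7 cells in replicates 1, 2 and 3, so that only replicate 1 gave it a profile of at least 10 cells for testing. The libraries held 45716237, 7185668 and 40377042 UMIs (unique molecular identifiers, counted RNA molecules) in replicates 1, 2 and 3. Replicate 2 was the shallowest and had 13 pericytes and 13 OPC. Levels are in CPM, the UMIs of a gene per 1000000 UMIs summed over a class in a library. They are set against each other only for the same gene, since the counts come from the 3′ ends of transcripts. The classes carried their markers: pericyte markers summed to between 23547 and 27880 CPM in pericytes and to at most 659 CPM in smooth muscle, and smooth muscle markers to between 32451 and 38427 CPM in smooth muscle and at most 434 CPM in pericytes.

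The ligands divided the classes. Dll4, a Delta-like ligand of endothelium, had 240, 113 and 179 CPM in arterial endothelial cells and 119, 150 and 85.7 CPM in other endothelial cells of replicates 1, 2 and 3. No other class had more than 11.3 CPM in any library, and smooth muscle had no Dll4 UMI in 175143. Jag2, a Jagged ligand, had 232, 273 and 283 CPM in arterial and 138, 170 and 179 CPM in other endothelial cells. Ependymal cells followed with 14.2, 12.8 and 12.3 CPM, smooth muscle had 0 and 1 UMI in replicates 1 and 3 (0 and 19.4 CPM), and pericytes had no Jag2 UMI among 422942. Against that count of 0, taken at a floor of 3 UMIs over the class, Jag2 was at least 37.0-fold higher in arterial and at least 22.9-fold higher in other endothelial cells than in pericytes. The bounds depend on how many pericyte UMIs were counted: without replicate 3 they were 20.7-fold and 12.6-fold, and without replicate 1 they were 22.3-fold and 14.0-fold.

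Jag1, the Jagged ligand with a known part in the formation of vascular smooth muscle, reached a wider set of classes. It stood at 154 and 155 CPM in smooth muscle of replicates 1 and 3, at 103, 146 and 101 CPM in arterial endothelial cells, at 110, 127 and 95.7 CPM in pericytes and at 51.4, 69.7 and 46.4 CPM in other endothelial cells. OPC had 33.5, 35.9 and 27.2 CPM and astrocytes 22.1, 36.7 and 13.2 CPM, while ependymal cells and microglia stayed at or under 6.38 CPM. The ranges of arterial cells and pericytes overlapped, and those of pericytes and other endothelial cells did not. Dll1, the remaining Delta-like ligand, was an OPC gene in this tissue, with 54.1, 168 and 51.2 CPM in OPC. The highest level of any other class in any library was 9.06 CPM, in arterial endothelial cells of replicate 2. The OPC value of replicate 2 rests on 14 UMIs from 13 cells. Over pericytes, with 0 UMIs, Dll1 was at least 12.8-fold higher in OPC, a bound that was 6.32-fold without replicate 2.

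**Figure D1:**
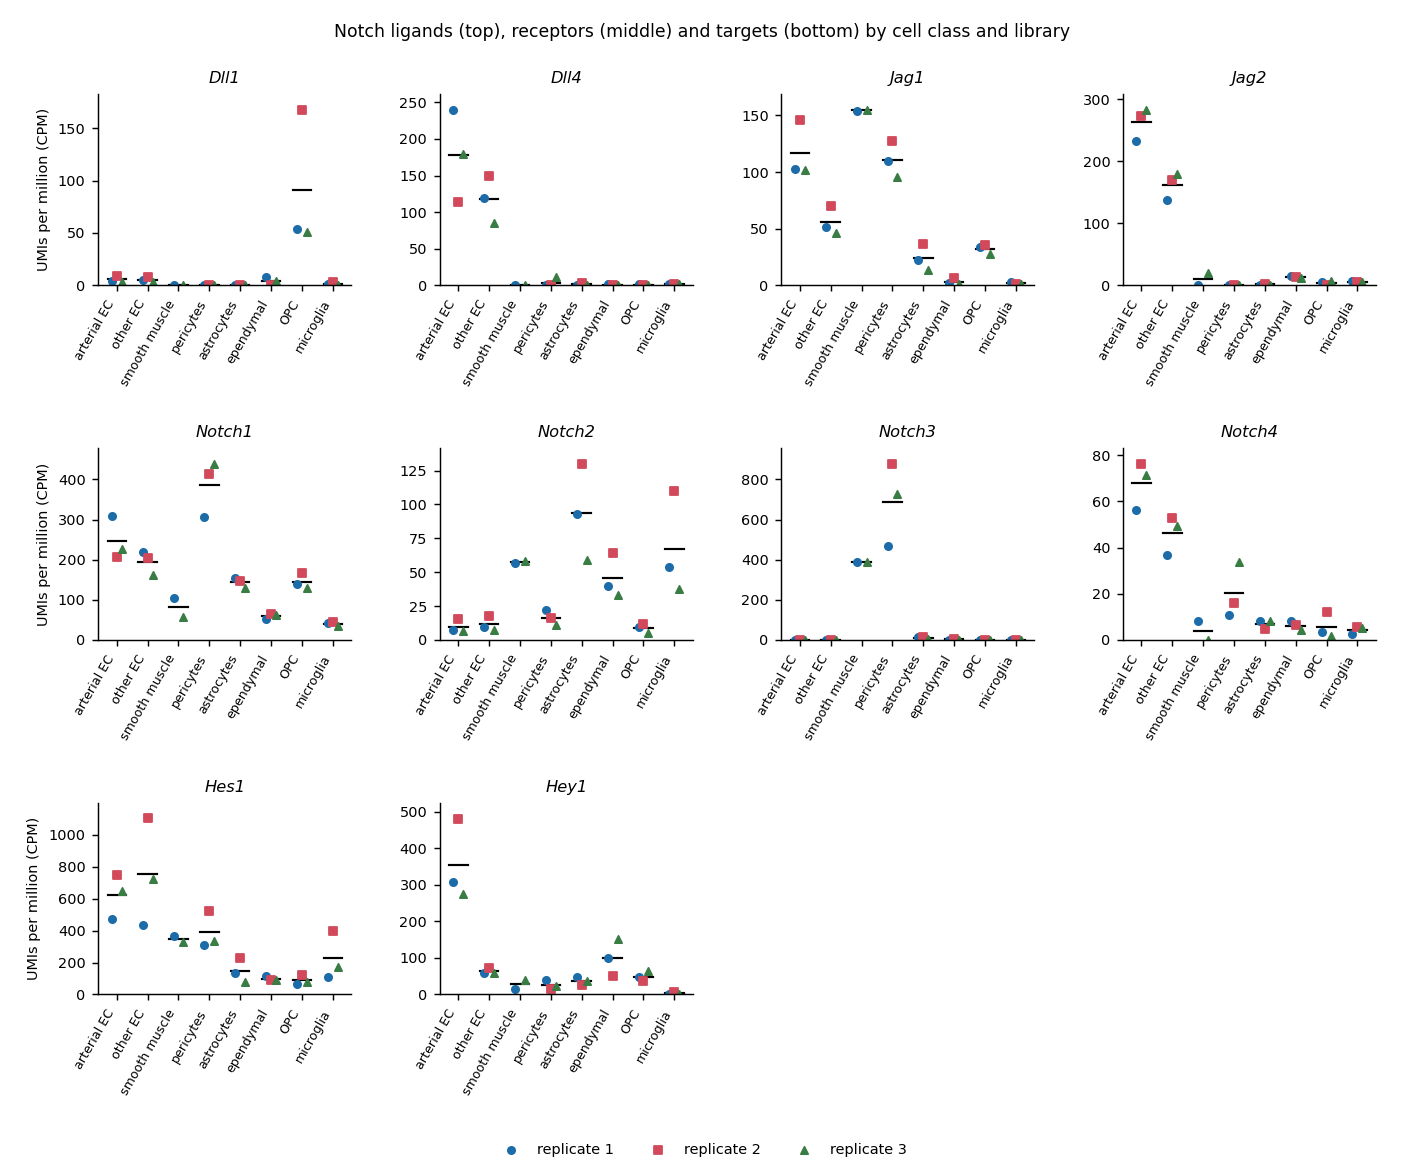
Levels in CPM (linear axes from 0) of the 4 ligands, 4 receptors and 2 targets in 8 cell classes (EC, endothelial cells). Each point is 1 library, and the black line is the mean over libraries. Dll4 and Jag2 are high in both endothelial classes, Notch3 in both mural classes, Dll1 in OPC and Hey1 in arterial endothelial cells.

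The receptors followed another division. Notch3, the receptor of mural cells, had 388 and 388 CPM in smooth muscle of replicates 1 and 3 and 466, 875 and 727 CPM in pericytes of replicates 1, 2 and 3. Astrocytes came next with 12.1, 14.7 and 6.26 CPM, and no other class exceeded 6.38 CPM. Markers of pericytes summed to between 24.1 and 31.8 CPM in astrocytes, with all 5 detected in at least 1 library, and their part in the Notch3 level there was not tested. A Notch3 UMI was found in 65.1%, 92.3% and 72.5% of pericytes but in 0.236%, 0% and 0.775% of microglia, a class that should lack it. The median pericyte held 2805, 4981 and 2473 UMIs and the median microglial cell 7912.5, 6216 and 6761 UMIs. With each cell thinned to 2000 UMIs the shares were 50%, 90.9% and 73.8% in pericytes and 0%, 0% and 0.299% in microglia. For the count of 0 among the 76 microglia of replicate 2 deep enough to be thinned, the exact 95% upper bound on the share with a UMI was 4.74%.

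Notch1, a receptor found in all 8 classes, was highest in pericytes, at 307, 414 and 439 CPM. Arterial endothelial cells had 309, 207 and 227 CPM, other endothelial cells 219, 204 and 162 CPM, OPC 138, 168 and 130 CPM and astrocytes 153, 147 and 129 CPM. Neighbours in this order overlapped, down to astrocytes. Smooth muscle had 105 and 58.2 CPM in replicates 1 and 3, and microglia, the lowest class, 42.0, 45.2 and 34.5 CPM.

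Notch2 was high in astrocytes and microglia and low in OPC, pericytes and endothelial cells. Astrocytes had 93.1, 130 and 58.8 CPM, microglia 54.1, 110 and 37.7 CPM, and ependymal cells 39.6, 63.8 and 33.1 CPM. These ranges overlap. Smooth muscle stood at 56.7 and 58.2 CPM on 7 and 3 UMIs. Both endothelial classes and OPC stayed between 4.80 and 17.4 CPM. Pericytes overlapped that range, with 21.9, 15.9 and 11.3 CPM in replicates 1, 2 and 3 on 4, 1 and 2 UMIs. Notch4, known as a receptor of endothelium, had 56.2, 76.1 and 71.4 CPM in arterial and 36.9, 52.9 and 49.6 CPM in other endothelial cells. Pericytes had 11.0, 15.9 and 33.8 CPM on 2, 1 and 6 UMIs, and the remaining classes at most 12 CPM.

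The 2 target genes differed in where they were high. Hes1 had 475, 747 and 646 CPM in arterial and 435, 1102 and 725 CPM in other endothelial cells, 312, 525 and 332 CPM in pericytes, 364 and 330 CPM in smooth muscle and 112, 398 and 169 CPM in microglia. Astrocytes, ependymal cells and OPC stood between 68.1 and 228 CPM. Hey1 had 309, 480 and 274 CPM in arterial endothelial cells, against 57.9, 71.3 and 60.1 CPM in other endothelial cells, and ependymal cells were the next class with 100, 51.0 and 152 CPM. OPC had 47.6, 35.9 and 64.1 CPM of Hey1, astrocytes 47.3, 26.9 and 35.8 CPM, pericytes 38.3, 15.9 and 22.5 CPM on 7, 1 and 4 UMIs, and smooth muscle 16.2 and 38.8 CPM on 2 UMIs each. Microglia were the lowest class for Hey1, with 1.87, 5.65 and 1.14 CPM. Hes1 also responds to signals other than Notch. The summed level of 12 immediate early genes, which answer to stress and dissociation, lay between 31212 and 42584 CPM in endothelial cells, between 14868 and 21426 CPM in microglia and between 1595 and 3167 CPM in astrocytes. In ependymal cells, whose Hes1 was between 89.3 and 116 CPM, it lay between 11089 and 30992 CPM, which overlaps microglia. The part of these genes in the Hes1 levels was not tested.

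Arterial endothelial cells were compared with other endothelial cells of the same libraries by the quasi-likelihood test of edgeR, with p-values adjusted after Benjamini and Hochberg over all 14401 genes. Hey1, Jag1 and Jag2 rose, and none of the 10 genes fell. In this comparison 5.25% of all tested genes were called (adjusted p under 0.05), 3.14% higher and 2.11% lower. The median log2 change was 0.42 over the 10 genes and -0.06 over all tested genes. The target Hey1 rose by a log2 change of 2.44 ± 0.23 (SE, adjusted p = 9.70e-10), and the arterial cells were above the other endothelial cells in all 3 libraries with no overlap between the classes. Detection of the arterial markers depends on depth, and the median arterial cell held 9981 UMIs against 5850 in other endothelial cells. When the arterial rule was applied after each cell was thinned to 2000 UMIs, a choice made after seeing the data, the Hey1 change was 1.54 ± 0.24 (adjusted p = 1.38e-05).

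Among the ligands, Jag1 rose by 1.03 ± 0.16 (log2 ± SE, adjusted p = 1.23e-05) and Jag2 by 0.66 ± 0.14 (adjusted p = 0.00254), both higher in arterial cells in 3 of 3 libraries and without overlap. The Jag2 call was lost without replicate 1 (0.59, adjusted p = 0.147) and with the arterial rule on thinned cells (0.54, adjusted p = 0.0550). Dll4 had a log2 difference of 0.59 ± 0.20 that did not pass (adjusted p = 0.102). It was higher in arterial cells of replicates 1 and 3 and lower in those of replicate 2, whose arterial class had 71 cells, and without replicate 2 the difference was 1.02 (adjusted p = 0.00163). Without replicate 1 it was 0.31 (adjusted p = 0.826), and without replicate 3 it was 0.36 (adjusted p = 0.614).

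Of the receptors, Notch4 had a difference of 0.52 ± 0.17 with the same sign in 3 of 3 libraries that did not pass (adjusted p = 0.0687), although the classes did not overlap. It passed with the other scaling of counts (0.57, adjusted p = 0.0377) and with DESeq2 (0.57, adjusted p = 0.0136). With a library left out the Notch4 difference did not pass. It was 0.45 without replicate 1 (adjusted p = 0.552), 0.55 without replicate 2 (adjusted p = 0.189) and 0.54 without replicate 3 (adjusted p = 0.228). Notch1 differed by 0.32 ± 0.17 (adjusted p = 0.441), Notch2 by -0.27 ± 0.21 (adjusted p = 0.715) and the target Hes1 by -0.24 ± 0.23 (adjusted p = 0.802). Hes1 was lower in arterial cells of replicates 2 and 3 and higher in those of replicate 1, and the classes overlapped. Dll1 and Notch3 were at or under 9.06 CPM in both classes. Smooth muscle markers summed to between 13.6 and 18.7 CPM in arterial and 14.5 and 16.6 CPM in other endothelial cells, and pericyte markers to between 9.42 and 24.5 CPM in arterial and 13.1 and 25.5 CPM in other endothelial cells. All 5 markers of either list were detected in both classes. Haemoglobin RNA summed to between 9153 and 25040 CPM in arterial and between 11462 and 18526 CPM in other endothelial cells.

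**Figure D2:**
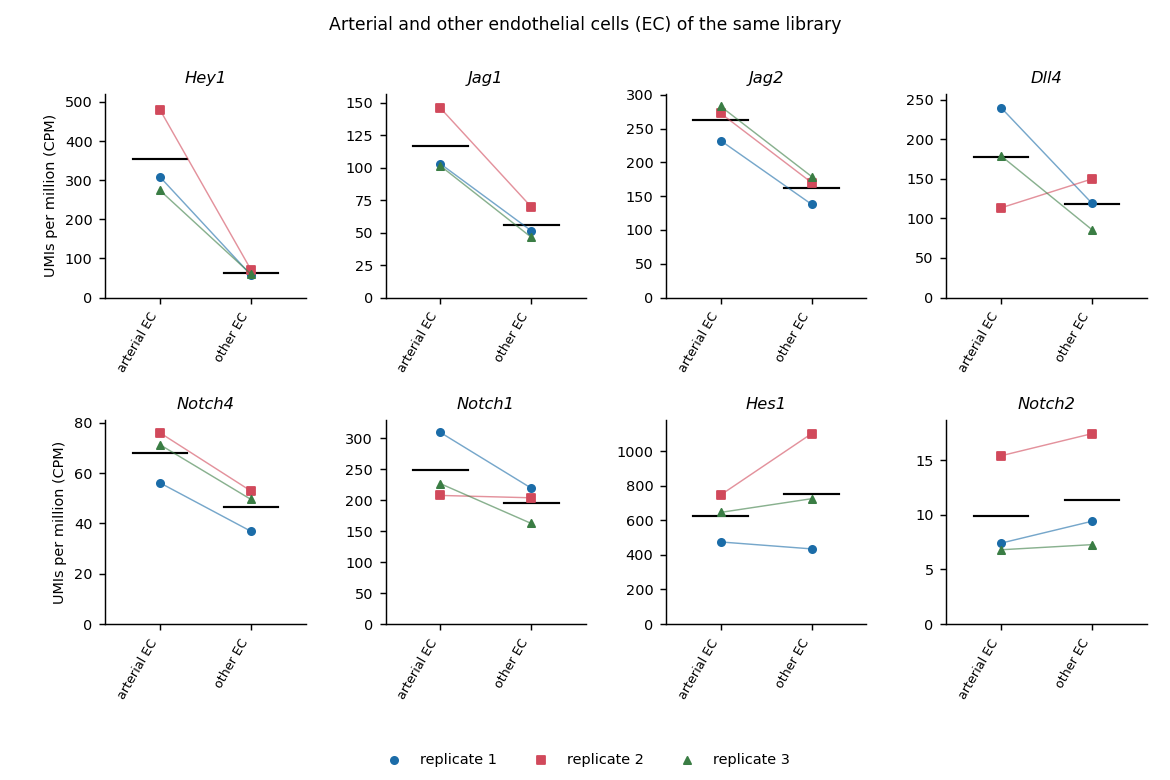
Levels in CPM of 8 genes in arterial (left) and other (right) endothelial cells (EC). Points of 1 library are joined by a line, and the black line is the mean over the 3 libraries. Hey1, Jag1, Jag2, Notch4 and Notch1 are higher in arterial cells of every library, and the Dll4 line of replicate 2 runs the other way. For Notch1 the levels of replicate 2 are 207 and 204 CPM, and after the scaling of the test 2 of 3 libraries kept the sign.

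In single cells the share with Hey1 RNA also differed. A Hey1 UMI was found in 72.6%, 73.2% and 68.1% of arterial cells and in 22.5%, 22.6% and 18.3% of other endothelial cells of replicates 1, 2 and 3. After thinning to 2000 UMIs the shares were 38.7%, 40.3% and 32.2% in arterial and 12%, 13.9% and 9.99% in other endothelial cells. The share in microglia, with the median depths given above, was 1.42%, 3.49% and 0.904% unthinned and 0.397%, 2.63% and 0.149% thinned. The exact 95% intervals of the thinned shares did not overlap between arterial and other endothelial cells in any library. Cells are not replicates, so these intervals cover counting error within a library only. The arterial class was set here before thinning.

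The endothelial cells outside the arterial class were described by zone, without a test. Capillary cells (2691) needed 2 of Mfsd2a, Slc16a1, Tfrc and Car4, and venous cells (539) 2 of Slc38a5, Nr2f2, Ackr1 and Lcn2. Cells that met both rules were taken as venous. The capillary markers summed to between 2196 and 2608 CPM in venous and 2155 and 2440 CPM in capillary cells. Depth also differed: in replicate 1, 292 venous cells held 4665970 UMIs, 1382 capillary cells 9765304 and 213 cells in neither zone 557159. The part of depth in the zone levels was not tested. Hey1 had 76.0, 80.8 and 71.7 CPM in capillary and 10.9, 14.5 and 8.22 CPM in venous cells, so these zones did not overlap. The cells in neither zone (213, 104 and 230 in replicates 1, 2 and 3) had more Hey1 than capillary cells, with 135, 159 and 143 CPM. Their arterial markers summed to 510, 96.2 and 671 CPM, against 75.7, 36.8 and 65.5 CPM in capillary cells. Dll4 had 151, 173 and 103 CPM in capillary and 50.2, 91.6 and 32.5 CPM in venous cells, and Jag2 had 147, 171 and 186 CPM in capillary and 113, 151 and 140 CPM in venous cells. Both were lower in venous than in capillary cells of every library. Jag1 did not share this order: venous cells had 53.2, 74.2 and 48.1 CPM and capillary cells 49.9, 66.7 and 44.7 CPM.

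**Figure D3:**
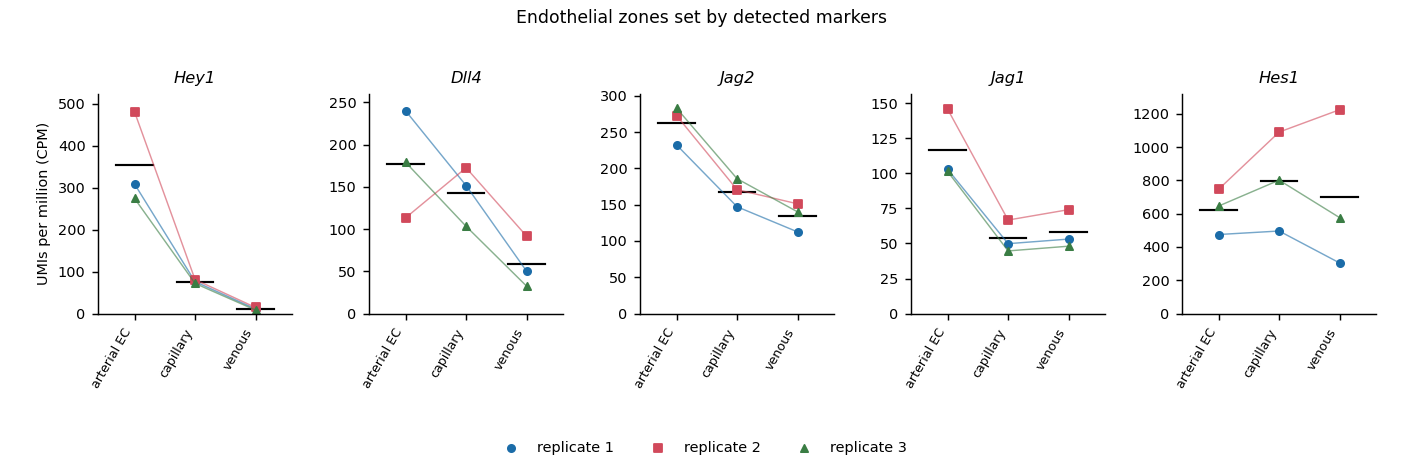
Levels in CPM of Hey1, Dll4, Jag2, Jag1 and Hes1 in arterial, capillary and venous endothelial cells (EC). Points of 1 library are joined, and the black line is the mean over 3 libraries. Hey1 is at 8.22 to 14.5 CPM in venous cells and at 274 to 480 CPM in arterial cells.

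Within the endothelial cells the levels were also ordered by how many of the 3 arterial markers a cell showed. Hey1 averaged 40.3, 142, 302 and 401 CPM in cells with 0, 1, 2 and 3 markers. Jag1 averaged 53.7, 63.4, 91.1 and 140 CPM over the same steps and Jag2 157, 183, 250 and 273 CPM. Dll4 averaged 111, 142, 154 and 200 CPM, but in replicate 2 the cells with 2 markers had less Dll4 than those with none. Cells with more markers were also deeper: in replicate 1 the median was 6317 UMIs with none and 11758 UMIs with all 3. In cells thinned to 2000 UMIs, Hey1 averaged 72.8, 291, 315 and 210 CPM with 0, 1, 2 and 3 markers. The last mean is of 414, 0 and 217 CPM in replicates 1, 2 and 3, and its 0 comes from 1 cell. The order held through 3 markers in replicate 1 but not in replicate 3, which had 265 CPM with 2 markers. In replicate 2 the thinned cells with 2 markers had 367 CPM and those with 1 marker 390 CPM. Only 29, 1 and 23 thinned cells of replicates 1, 2 and 3 showed all 3 markers.

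**Figure D4:**
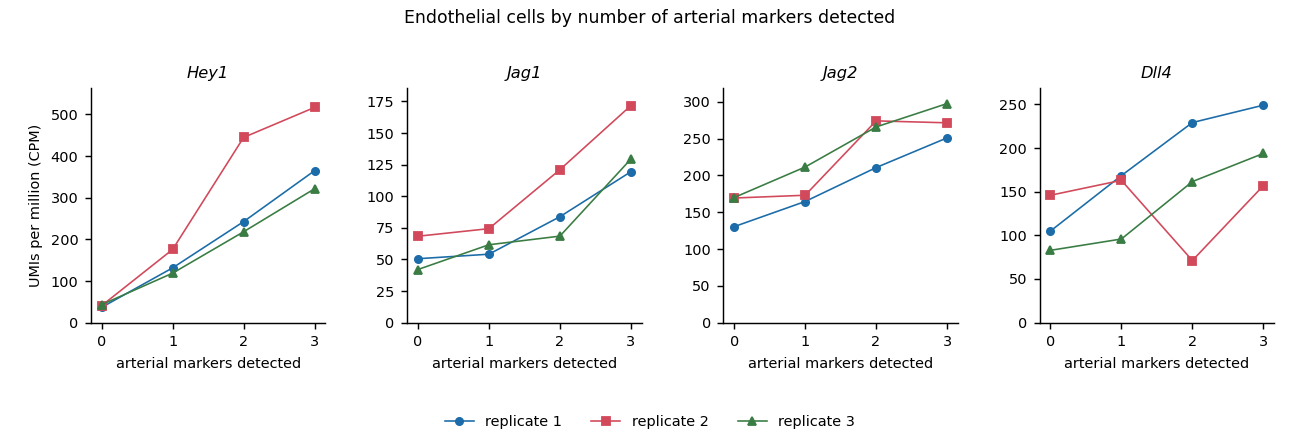
Levels in CPM of Hey1, Jag1, Jag2 and Dll4 in endothelial cells that showed 0, 1, 2 or 3 of the arterial markers Gkn3, Sema3g and Bmx. Each line is 1 library. Hey1 is higher with each added marker in all 3 libraries.

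Smooth muscle was compared with pericytes to ask how the mural classes differ. Only 1 smooth muscle profile, of 26 cells from replicate 1, entered this fit, which has no spread of its own for that class and assumes that the lone profile varies like the others. Of the 10 genes, Notch1 was called lower and none was called higher, while 3.92% of all tested genes were called, 1.55% lower and 2.37% higher. Notch1 had 105 CPM in that profile, against 307, 414 and 439 CPM in pericytes, a log2 difference of -1.84 ± 0.43 (adjusted p = 0.00787). The smooth muscle of replicate 3, with 3 Notch1 UMIs from 7 cells, was at 58.2 CPM. With that profile added, a choice made after seeing the data, the difference was -2.03 ± 0.38 (adjusted p = 0.000313). Notch3 differed by -0.36 ± 0.41 (adjusted p = 0.861), Jag1 by 0.58 ± 0.44 (adjusted p = 0.669), Notch2 by 1.88 ± 0.73 (adjusted p = 0.224), Hes1 by 0.40 ± 0.45 (adjusted p = 0.854) and Hey1 by -0.65 ± 1.39 (adjusted p = 0.981). These SEs leave room for differences of more than 1 log2 unit. When mural cells were split by the larger share of detected markers instead, a choice made after seeing the data, Notch2 (1.78, adjusted p = 0.0289) and Hes1 (1.08, adjusted p = 0.0355) passed as well.

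Each larger class was then set against the mean of the other classes. The log2 changes average logs over classes after scaling, while the CPM beside them are plain means. The size of a log2 change therefore need not match the ratio of these CPM. Mural cells, taken as pericytes and smooth muscle together, had more Notch3 (log2 change 8.32 ± 0.33, SE) and more Jag1 (2.62 ± 0.28). Each was higher in 3 of 3 libraries, but smooth muscle entered this fit only as the profile of 26 cells from replicate 1. In the other libraries the sign is therefore that of pericytes alone. That lone profile weighed as much in the mural mean as all pericyte profiles together. In the mural comparison 13.3% of all tested genes were called, 6.15% higher and 7.17% lower. Notch3 averaged 539 CPM in mural cells and 2.81 CPM in the other classes. Jag1 averaged 132 CPM in mural cells and 39.0 CPM in the others. Jag2 was called lower, but neither mural class held a UMI in the fit, so its fitted change is not given. The lower bounds given above are for endothelial cells against pericytes and not for this comparison. At the pericyte floor of 7.09 CPM no bound can be set against astrocytes, OPC and microglia, whose Jag2 means were 1.42, 3.94 and 5.86 CPM.

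In endothelial cells, 8 of the 10 genes rose against the other classes and 2 fell, where 38.9% of all tested genes were called, 26.7% higher and 12.2% lower. Notch4 rose by 3.1 ± 0.18, Hey1 by 2.71 ± 0.20, Jag1 by 2.15 ± 0.13, Hes1 by 1.97 ± 0.15 and Notch1 by 1.16 ± 0.12 (log2 ± SE), each higher in 3 of 3 libraries. Dll4 averaged 148 CPM in endothelial cells and 1.18 CPM in the others, and Jag2 213 CPM and 4.05 CPM. Dll1 was called higher only in this average of logs: its mean was 5.49 CPM in endothelial cells and 16.1 CPM in the others, of which both mural classes were at 0 and OPC at 90.9 CPM. Notch2 fell by 1.76 on the log2 scale, with 10.6 CPM in endothelial cells and 48.1 CPM in the others. Notch3 fell by 2.84 (adjusted p = 0.0012), on 12 and 33 UMIs in arterial and other endothelial cells. Without replicate 3 that call was lost, at a change of -2.36, and it was also lost with a strict class rule, which allows no more than 1 detected marker of any other list (-3.09), and a mitochondrial limit of 10% (-2.08).

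Astrocytes had more Notch2 and less Hes1 than the mean of the other classes, where 46.0% of all tested genes were called, 32.0% higher and 14.0% lower. Notch2, at 93.9 CPM in astrocytes and 30.8 CPM in the others, rose by 2.18 ± 0.14, and Hes1, at 146 CPM against 364 CPM, fell by 0.93 on the log2 scale. Notch3 was called higher in astrocytes by 1.02 ± 0.32, although its mean was 11.0 CPM there and 155 CPM in the others. That mean includes the mural classes, and the test averages logs over classes. Microglia had 2.00 ± 0.15 more Notch2, at 67.3 CPM against 34.6 CPM, where 45.3% of all tested genes were called, 29.1% higher and 16.2% lower. Hey1, Jag1, Notch1, Notch3 and Notch4 fell in microglia, and of these Hey1 fell by 4.38 and Jag1 fell by 3.42 on the log2 scale. The Hey1 call was lost with the strict class rule (-3.20). The Notch4 call was lost without replicate 1 (-0.89, adjusted p = 0.0599) and with no filter on low counts (-0.98, adjusted p = 0.0550), and its direction turned with the strict class rule (0.14). The Notch3 call was lost without replicate 3 (-3.42), with the strict class rule (-2.92) and with a mitochondrial limit of 10% (-2.52).

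Ependymal cells, which carry cilia and line the ventricles, had more Hey1 and less Jag1, where 45.5% of all tested genes were called, 32.5% higher and 13% lower. Hey1 rose by 1.86 ± 0.24, with 101 CPM in ependymal cells and 78.3 CPM in the others. Notch2 was called higher by 0.89 ± 0.19, a call that was lost without replicate 3 (0.66, adjusted p = 0.0586) and with a loose class rule, which asks other lists only to stay under their own minimum (0.39, adjusted p = 0.366), and the direction turned with the strict class rule (-0.12). Jag1 fell by 4.22, Hes1 fell by 1.39 and Notch1 fell by 1.30 on the log2 scale, and Notch3 and Notch4 were called lower at 2.35 and 6.23 CPM, Notch3 in 2 of 3 libraries. Without replicate 3 both calls were lost (Notch4 -0.55, adjusted p = 0.507, and Notch3 -2.80), as they were with the strict class rule (-0.79 and -0.60), and the Notch3 call also with a mitochondrial limit of 10% (-2.94). Dll1 was called higher in the average of logs, in 2 of 3 libraries, although its mean was 3.85 CPM in ependymal cells and 14.8 CPM in the others. In OPC the ligand Dll1 was called higher at 90.9 CPM against 2.34 CPM, and Hes1 fell by 2.25 and Notch2 fell by 2.21 on the log2 scale, where 39.9% of all tested genes were called, 26.7% higher and 13.2% lower. Notch3 and Notch4 were also called lower in OPC, at 0.534 and 5.60 CPM. The Notch3 call was lost without replicate 1 (-2.20, adjusted p = 0.163) and the Notch4 call with the strict class rule (-2.64). Neuronal markers summed to between 96.1 and 239 CPM in OPC, with Rbfox3 and Slc17a7 at 0 in all 3 libraries, and their part in the Dll1 level was not tested.

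With DESeq2 in place of edgeR, the median log2 change of all genes moved by -0.37 in endothelial cells, 0.75 in mural cells, -0.26 in astrocytes, -0.18 in ependymal cells and -0.36 in microglia. In smooth muscle against pericytes it moved by 0.19. The share of all calls that were higher was 39.6% with DESeq2 and 68.7% with edgeR in endothelial cells, 74.5% and 46.2% in mural cells, 57.3% and 69.5% in astrocytes, and 46.5% and 64.2% in microglia. In arterial cells it was 70.0% with DESeq2 and 59.8% with edgeR, and in smooth muscle 82.0% and 60.5%. With the other scaling in edgeR (RLE), the median moved by -0.15 in endothelial and 0.17 in mural cells, and 61.3% of mural calls were higher. DESeq2 and RLE kept the direction of each of the 33 called changes of the 10 genes that were followed under alternatives.

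The other genes of the pathway were taken from a list of 49 genes, 48 of which could be tested. Between arterial and other endothelial cells 1 of the 48 was called, against 5.25% of all tested genes in either direction. It was Neurl3, a ubiquitin ligase of the family that prepares ligands for uptake, which fell by 2.33 on the log2 scale with 3.20, 1.81 and 0.283 CPM in arterial cells and 10.7, 9.36 and 9.40 CPM in other endothelial cells. The 10 genes for receptor cleavage, the 5 for glycosylation and the 12 of the nuclear complex gave no call there. Between smooth muscle and pericytes, with the lone smooth muscle profile described above, 1 of the 48 was called lower. It was Dtx3, a Deltex-type ubiquitin ligase, with 113 CPM in smooth muscle of replicate 1 and 296, 573 and 451 CPM in pericytes.

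Other target genes marked classes that the 2 followed targets did not. Hes5, a target known from neural progenitors and glia, had 445, 238 and 196 CPM in astrocytes and 636, 634 and 259 CPM in OPC, and at most 16.2 CPM in any other class and library. It rose by 5.60 ± 0.19 in astrocytes and by 5.77 ± 0.21 in OPC (log2 ± SE), and astrocyte markers summed to between 564 and 646 CPM in OPC against 14112 to 16523 CPM in astrocytes. Hey2 had 113 and 77.5 CPM in smooth muscle and 115, 143 and 95.7 CPM in pericytes, followed by OPC with 44.3, 47.9 and 35.2 CPM. It rose by 4.17 ± 0.35 in mural cells. Heyl, a target that accompanies Notch3 in mural cells, had 129 and 136 CPM in smooth muscle and 285, 159 and 186 CPM in pericytes, against 1.54 CPM on average in the remaining classes. Nrarp, a feedback inhibitor, averaged 124 CPM in mural cells and 33.6 CPM in the others, a rise of 1.97 ± 0.53.

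**Figure D5:**
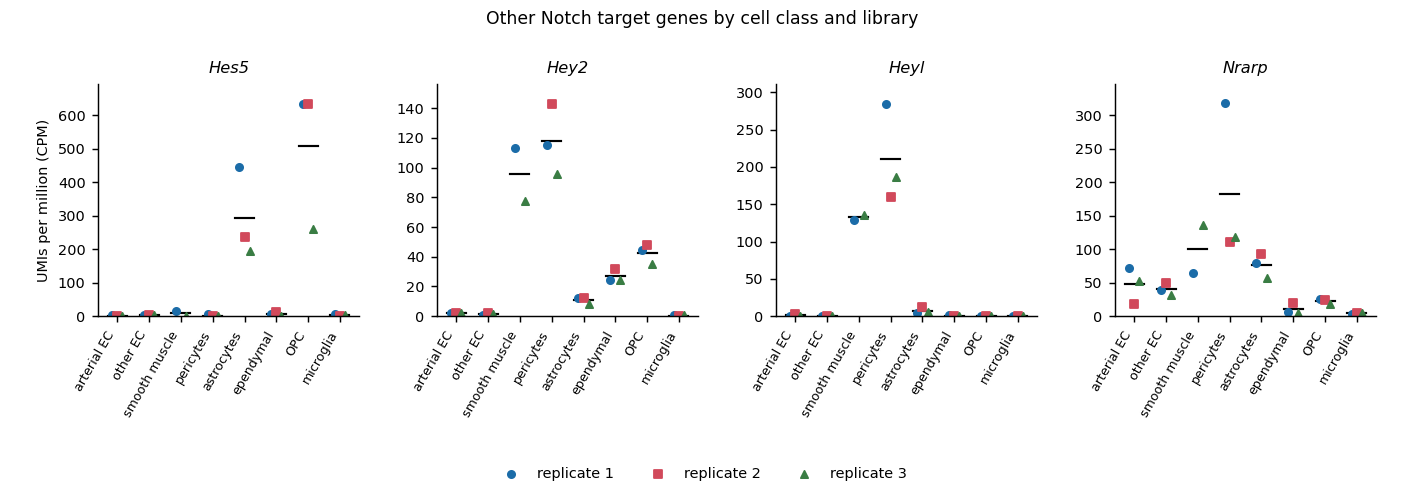
Levels in CPM of 4 further Notch target genes in 8 cell classes (EC, endothelial cells). Points are libraries and black lines their means. Hes5 is high in astrocytes and OPC, and Hey2 and Heyl in smooth muscle and pericytes.

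Further genes of the pathway were called in the larger classes, with 19 of 48 higher and 7 lower in endothelial cells, 5 and 6 in mural cells, 11 and 8 in astrocytes, 12 and 12 in ependymal cells, 13 and 6 in OPC, and 24 and 10 in microglia. In astrocytes 39.6% of the 48 were called, against 46.0% of all tested genes, in OPC 39.6% against 39.9% and in ependymal cells 50% against 45.5%, which are near the background or under it. In endothelial cells the shares were 54.2% against 38.9%, in mural cells 22.9% against 13.3% and in microglia 70.8% against 45.3%. The lower mural calls include Adam10, Lfng, Psen2 and Adam17, which were at 0 in the lone smooth muscle profile. The mural comparison could not be repeated without smooth muscle. With smooth muscle left out of the fit, a choice made after seeing the data, the calls were 21 higher and 13 lower in endothelial cells, 15 and 15 in astrocytes, 11 and 19 in ependymal cells, 13 and 13 in OPC, and 23 and 13 in microglia. The share of all tested genes called was then 56.3%, 56.7%, 55.3%, 46.3% and 57.8% in these 5 classes. Among the largest, Egfl7, a secreted endothelial protein that acts on Notch, averaged 1381 CPM in endothelial cells and 16.7 CPM in the others and rose by 6.92 ± 0.26. Mfng, a Fringe enzyme that changes the sugars on Notch, averaged 66.4 CPM in endothelial cells and 68.2 CPM in microglia, and Lfng, its relative, 122 CPM in microglia and 89.5 CPM in astrocytes. Dll3, a Delta-like ligand that does not activate receptors of neighbouring cells, had 53.0, 144 and 70.5 CPM in OPC and 0.392 CPM on average in the others. Neurl3 averaged 179 CPM in microglia and 1.94 CPM in the others. Dtx1, a Deltex ubiquitin ligase, averaged 57.8 CPM in ependymal cells and 46.6 CPM in astrocytes. Smooth muscle was at 0 for Mfng, Lfng, Dll3, Neurl3 and Dtx1, so fitted fold changes of these genes against means that include it are not given.

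For each of the 10 genes, the gene with the most similar mean log2(CPM + 1) over the 8 classes was found among 11198 genes of at least 20 CPM in some class. With only 8 classes, which share libraries and depth, these correlations are descriptions. Notch3 was closest to Heyl (Pearson r = 0.998), Dll4 to Myct1 (0.997), Jag2 to H2-T22 (0.995), Dll1 to Zfp57 (0.994), Notch4 to Adgrf5 (0.991) and Hes1 to Lnx2 (0.990). Notch1 was closest to Cthrc1 (0.981), Hey1 to Rfk (0.980), Jag1 to Strn3 (0.978) and Notch2 to Sdc4 (0.956).

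The genes lie on mm10 as follows (GENCODE annotation). Dll1 (ENSMUSG00000014773.13) spans 15367354 to 15376872 on chromosome 17 and Dll4 (ENSMUSG00000027314.6) 119325784 to 119335962 on chromosome 2. Jag1 (ENSMUSG00000027276.7) spans 137081456 to 137116644 on chromosome 2 and Jag2 (ENSMUSG00000002799.6) 112907819 to 112929776 on chromosome 12. Notch1 (ENSMUSG00000026923.15) spans 26457903 to 26516663 on chromosome 2, Notch2 (ENSMUSG00000027878.11) 98013527 to 98150361 on chromosome 3, Notch3 (ENSMUSG00000038146.8) 32120820 to 32166852 on chromosome 17 and Notch4 (ENSMUSG00000015468.14) 34564268 to 34588503 on chromosome 17. Hes1 (ENSMUSG00000022528.8) spans 30064384 to 30067796 on chromosome 16 and Hey1 (ENSMUSG00000040289.8) 8663359 to 8667256 on chromosome 3.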

How the data were processed

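Hippocampal cells of aged wild-type mice were counted in 3 libraries of 10x Chromium 3′ chemistry. The deposited tables hold raw UMI counts per gene and barcode, for which the authors used Cell Ranger and the mm10 build, per the submitters' processing notes, with no version in the sources used here. The libraries held 7241, 1062 and 6456 barcodes and shared 3 (replicates 1 and 2), 12 (replicates 1 and 3) and 2 barcodes (replicates 2 and 3), none with identical counts. Barcodes needed 500 or more UMIs and 300 or more genes, with no more than 20% of UMIs from mitochondrial genes, and 190, 8 and 133 doublets called by Scrublet (scanpy 1.11.5) were removed, which left 6222, 946 and 4932 cells.

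A class needed its minimum of detected markers, with every other list at no more than 1 in 2 of that share. By this rule 2288 cells (18.9%) stayed unassigned. UMIs were summed per library and class of at least 10 cells, giving 22 profiles. They were fitted with edgeR 4.0.16 (limma 3.58.1, R 4.3.3): TMM scaling, filterByExpr, quasi-likelihood tests, the library as a block, Benjamini-Hochberg adjustment at 0.05, 12 residual degrees of freedom, marker genes left out. Classes of 1 library come from the same cells' preparation, so the library pairs them by construction. Only genes in the member list, the fixed pathway list (at most the 6 largest calls with 1 sign in every library) and the nearest genes by correlation were named. The members, lists and tests were chosen with earlier results of these data known. The fit was tested on simulated data of 10856 genes: of 50 genes changed by each of -2, -1, 1 and 2 on the log2 scale between arterial and other endothelial cells, 50, 23, 30 and 50 were called. Of the unchanged genes, 5 were called. The simulated classes shared 1 endothelial mean profile and 1 fixed dispersion, without shifts between libraries, and changed genes had at least 20 CPM. The real data are less even, so these rates need not hold for them. With the library as a block, the p-values rest on the spread left after shifts between libraries, estimated from all 22 profiles together. Smooth muscle, with 1 profile, has no spread of its own. The labels do not tie the 3 libraries to animals. Intervals and floors (3 UMIs) cover counting error only. Alternatives were another scaling (RLE), DESeq2 1.42.0, no low-count filter, no block, leaving out each library, other class, mitochondrial, doublet and cell-number rules, and fits of the compared classes alone.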

Additional observations from a re-analysis of the deposited data

How the results depend on the processing

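Changes were followed only where every compared class held a UMI of the gene in the fit. Dll1, Dll4 and Jag2 in endothelial cells, Jag2 in mural cells, and Dll1 in ependymal cells and OPC were called but not followed. Of the 44 log2 changes followed, 33 were called. Of 674 alternative values, 641 kept direction and side of the threshold, 21 lost the call, 10 gained it and 2 reversed. The reversed values were Notch2 in ependymal cells (-0.12) and Notch4 in microglia (0.14), both with the strict class rule. The count of genes called between arterial and other endothelial cells was 756; it was 468 with no replicate block, 1867 when only these classes were fitted, and 447 to 613 when each library was left out in turn, the lowest without replicate 1. Splitting mural cells by the larger share of markers, chosen after seeing the data, gave 866 calls between smooth muscle and pericytes, against 564, and 3052 for mural cells, against 1917. The strict class rule gave 2880 calls in ependymal cells, against 6550. The cause was not tested. The replicate block changed the Notch2 call in ependymal cells, which was lost without it (0.73, adjusted p = 0.0697), and no other of the 33 calls followed. Notch4, Dll4 and Notch1 passed between arterial and other endothelial cells when these classes were fitted alone (adjusted p = 0.000521, 0.0266 and 0.0164). Smooth muscle against pericytes could not be fitted alone, for want of residual degrees of freedom, and gave no value without replicate 1. Thinning cells to 2000 UMIs moved 30 of 80 mean levels by more than 1 SD between libraries. Depth limits low levels: outside the endothelial classes no profile held more than 10 Dll4 UMIs.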

Other observations

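Cells outside the 8 classes also carried RNA of these genes. Fibroblasts (16, 3 and 10 cells in replicates 1, 2 and 3) had 171, 30.5 and 104 CPM of Notch2, 89.7, 122 and 156 CPM of Jag1 and 497, 213 and 130 CPM of Hes1, and no UMI of Notch3, Dll1, Dll4 or Jag2. Border macrophages (58, 4 and 31 cells) had 43.6, 155 and 76.8 CPM of Notch2 and 92.3, 0 and 269 CPM of Hes1. The 2288 unassigned cells, with a median of 1668 UMIs, had 74.9, 51.6 and 24.4 CPM of Notch3, which is lower than in pericytes and higher than in endothelial cells of each library.

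Notch2, Jag1 and Hes1 had their highest level in replicate 2 in 6 of 7 classes. Of all tested genes, 2.81% had their highest level in replicate 2 in as many classes or more. For Hes1 the exceptions in level were ependymal cells, with 89.3 CPM in replicate 2 and 116 and 92.1 CPM in replicates 1 and 3. Replicate 2 was also the shallowest library, and the part of depth or handling in this pattern was not tested.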
